A study of Mus musculus with 50 samples.

Results

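The Dlk1-Meg3 domain is a cluster of imprinted genes on mouse chromosome 12, and its 5 members taken here are Meg3, Rian, Mirg, Dlk1 and Rtl1. They were chosen by name as the rows of the domain in both expression tables of a study of mouse embryonic stem cells (mESCs), 5 of the 24412 genes of the first table. The study measured RNA by sequencing in TT2 cells that lacked enzymes which methylate lysine 9 of histone H3 (H3K9), in the context of H3K9 di-methylation and minor zygotic genome activation, the first transcription of the embryo. It comprised 50 libraries in 25 groups of 2, and values are TPM, a length-scaled share of each library's transcripts.

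Imprinted genes are expressed from only the maternal or only the paternal chromosome, according to DNA methylation laid down in the germ line. In this domain the paternal chromosome expresses the protein genes Dlk1 and Rtl1, whereas the maternal chromosome expresses the long non-coding RNAs Meg3, Rian and Mirg, which are host transcripts of small nucleolar RNAs and of a large miRNA cluster. The maternal RNAs are known to become silenced on both chromosomes in some cultured mouse stem cell lines, where their silencing is linked to reduced developmental potency. TPM does not tell the 2 parental alleles apart, so no allele was assigned here.

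The first table held 18 libraries of 9 genotypes: control, Setdb1-KO, Suv39h1/2-DKO, Suv39h1/2;Setdb1-TKO, G9a-KO, G9a;Setdb1-DKO, G9a;Suv39h1/2-TKO, G9a;Suv39h1/2;Setdb1-QKO, and the same QKO with Dux-KO. G9a, encoded by Ehmt2, deposits H3K9 mono- and di-methylation, Setdb1 and Suv39h1/2 deposit tri-methylation, and Dux is a transcription factor that activates 2-cell genes. The second table held 32 libraries, in which the genotype label of every library, controls included, carried Dux-KO and a Tet-on-Dux transgene. The 8 methyltransferase genotypes other than the Dux-KO QKO appeared there without doxycycline and with it, at a labelled level of 0.2 for control and Setdb1-KO and of 1 for the other 6, with no unit given. Setdb1 loss always came with the title tag OHT, and the other libraries had NT. Each pair of genotypes without and with Setdb1 loss carried 1 line name, so line and genotype cannot be told apart for G9a and Suv39h1/2, nor OHT treatment and Setdb1 loss. The Dux-KO QKO carried a line name other than that of the QKO, so line and Dux loss cannot be told apart either. Line names also differed between the tables. The labels do not say that the 2 replicates of a group were separate cultures, and p-values therefore measure only the spread between these libraries. The stem cell marker Pou5f1 was present throughout, at 1248 to 2621 TPM, and 11740 to 13274 genes reached 1 TPM in a library.

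On GRCm38 (mm10), the build of the deposited tables, the members lie on chromosome 12 in the order Dlk1 (chr12:109452823-109463336, plus strand), Meg3 (chr12:109541001-109571726, plus), Rtl1 (chr12:109589193-109600330, minus), Rian (chr12:109603940-109661716, plus) and Mirg (chr12:109729764-109749460, plus). The annotation (GENCODE M21) lists Dlk1 and Rtl1 as protein coding, Meg3 and Mirg as long intergenic non-coding RNAs and Rian as a processed transcript. The Dlk1 start lies 88.2 kb before that of Meg3, and the starts of Rian and Mirg lie 62.9 and 188.8 kb after it. The maternal RNAs thus share a strand and follow each other over about 0.2 Mb, and Rtl1 is read in the opposite direction between Meg3 and Rian.

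The promoters of Meg3 and Rian are shown because these RNAs differed most between genotypes and moved together. They are the 300 bases from 250 before to 50 after the RefSeq start (GRCm38.p6), chr12:109540746-109541045 and chr12:109603695-109603994, both on the plus strand. Capitals mark matches to the motifs searched, which were the TGCCGC motif of the imprint-binding protein ZFP57, the cyclic AMP response element TGACGTCA and TATAAA, on both strands.
Meg3 promoter: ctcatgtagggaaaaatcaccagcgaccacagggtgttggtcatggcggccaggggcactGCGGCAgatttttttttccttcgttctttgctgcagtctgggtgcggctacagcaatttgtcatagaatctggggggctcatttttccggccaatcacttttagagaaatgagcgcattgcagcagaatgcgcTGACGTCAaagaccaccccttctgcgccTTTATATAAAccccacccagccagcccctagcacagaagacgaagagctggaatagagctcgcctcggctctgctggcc
Rian promoter: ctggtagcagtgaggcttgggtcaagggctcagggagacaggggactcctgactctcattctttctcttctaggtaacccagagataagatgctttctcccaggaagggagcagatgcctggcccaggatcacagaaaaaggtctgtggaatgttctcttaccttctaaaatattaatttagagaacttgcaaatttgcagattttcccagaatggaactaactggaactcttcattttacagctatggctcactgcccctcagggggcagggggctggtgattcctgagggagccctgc
The Meg3 promoter held the ZFP57 motif on the minus strand at -190 to -185 from the start, the cyclic AMP response element at -57 to -50 and 2 overlapping TATAAA matches between -29 and -20. Among 32817 distinct mouse promoters of this length, 11.6% held the ZFP57 motif, 1.79% the cyclic AMP response element and 13.6% TATAAA. The promoters of Rian, Mirg (chr12:109734731-109735030) and Dlk1 (chr12:109452573-109452872) held none of the 3. The Meg3 promoter shown had 13 CpG sites, Mirg 10, Dlk1 9 and Rian 0, against a median of 7 and quartiles of 3 and 20 over all promoters. Another listed Meg3 promoter (chr12:109545148-109545447) had 1 CpG site and none of the 3 motifs. The listed Mirg promoter lies inside Mirg as GENCODE maps it, and not at the start given above. A match describes letters only and is not a bound site.

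The same transcripts carry the miRNA cluster, of which RefSeq lists 114 mature miRNAs (113 names, with 1 of them at 2 places) from 58 hairpins in the domain. Of the 114, 106 lie on the plus strand, 3 within an exon of Meg3, 11 antisense to an exon of Rtl1, 6 in introns of Rian, 48 between Rian and Mirg, and 8 in exons and 18 in introns of Mirg. A few are printed to show which miRNAs the measured hosts carry, with the seed, bases 2 to 8, in capitals.
miR-770-5p (exon of Meg3): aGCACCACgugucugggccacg
miR-127-3p (antisense to the exon of Rtl1): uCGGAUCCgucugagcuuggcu
miR-370-3p (intron of Rian): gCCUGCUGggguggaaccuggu
miR-379-5p (between Rian and Mirg): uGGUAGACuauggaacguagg
miR-1193-5p (between Rian and Mirg): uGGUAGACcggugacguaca
miR-410-3p (exon of Mirg): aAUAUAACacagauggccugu
Seeds were mostly distinct: the 113 named miRNAs had 104 seeds, and 9 seeds, such as that of miR-379-5p and miR-1193-5p, were shared by 18 of them. The poly(A) libraries do not measure mature miRNAs, and the rows Mir127, Mir370, Mir410 and Mir541 were listed at 0 in all 50 libraries.

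Meg3, a maternal long non-coding RNA, was near 0 in the control cells of the first table and above 20 TPM in every library of that table without G9a. Its level was 0.0629 and 0.00518 TPM in the 2 control libraries and 69.7 and 59.7 TPM in the 2 G9a-KO libraries. With Setdb1 also lost it was 112.1 and 111.7 TPM, with Suv39h1/2 also lost 25.2 and 21.0 TPM, and in the QKO 65.0 and 48.8 TPM. The 10 libraries without G9a, which include the Dux-KO QKO at 44.0 and 36.6 TPM, ranged from 21.0 to 112.1 TPM (median 54.3). The 8 libraries that kept G9a ranged from 0.00518 to 3.67 TPM (median 0.922), and the 2 sets did not overlap.

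Within the libraries that kept G9a, Meg3 was low and still differed between genotypes. Setdb1-KO libraries had 1.84 and 1.68 TPM, above both controls. Suv39h1/2-DKO libraries had 0.167 and 0.0160 TPM, which overlapped the controls, and cells that lost Suv39h1/2 and Setdb1 had 3.67 and 2.36 TPM. In the order of group means, G9a;Setdb1-DKO led with 111.9 TPM, then came G9a-KO (64.7), QKO (56.9), Dux-KO QKO (40.3), G9a;Suv39h1/2-TKO (23.1), Suv39h1/2;Setdb1-TKO (3.01), Setdb1-KO (1.76), Suv39h1/2-DKO (0.0914) and control (0.0340). The neighbours G9a-KO and QKO overlapped, as did Suv39h1/2-DKO and control. No other pair of neighbours did.

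Rian, the host of C/D box small nucleolar RNAs, ranked the groups by mean as Meg3 did, except that the overlapping control and Suv39h1/2-DKO changed places. It was 0.261 and 0.105 TPM in control, 80.6 and 86.1 TPM in G9a-KO, and 120.03 and 136.9 TPM once Setdb1 was lost as well. The QKO had 55.8 and 60.5 TPM, the Dux-KO QKO 36.4 and 35.0 TPM, and cells without G9a and Suv39h1/2 29.2 and 29.6 TPM. Over the 10 libraries of the first table without G9a the range was 29.2 to 136.9 TPM, with no overlap with the 0.0358 to 5.14 TPM of those that kept it. Among the latter, Setdb1-KO had 2.81 and 3.29 TPM, Suv39h1/2-DKO 0.141 and 0.0358 TPM, and the loss of Suv39h1/2 and Setdb1 4.65 and 5.14 TPM, so both groups without Setdb1 lay above both with it.

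Mirg, the host at the far end of the cluster, was listed at 0 in both control libraries and both Suv39h1/2-DKO libraries of the first table. In G9a-KO it was 13.8 and 8.43 TPM, with Setdb1 also lost 23.5 and 17.3 TPM, and with Suv39h1/2 also lost 6.44 and 4.23 TPM. The QKO libraries had 10.04 and 9.62 TPM and the Dux-KO QKO libraries 4.85 and 7.48 TPM. Setdb1-KO (0.305 and 0.455 TPM) and the loss of Suv39h1/2 and Setdb1 (0.991 and 0.690 TPM) stayed under 1 TPM, below all 10 libraries of that table without G9a, whose lowest value was 4.23 TPM.

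**Figure D1:**
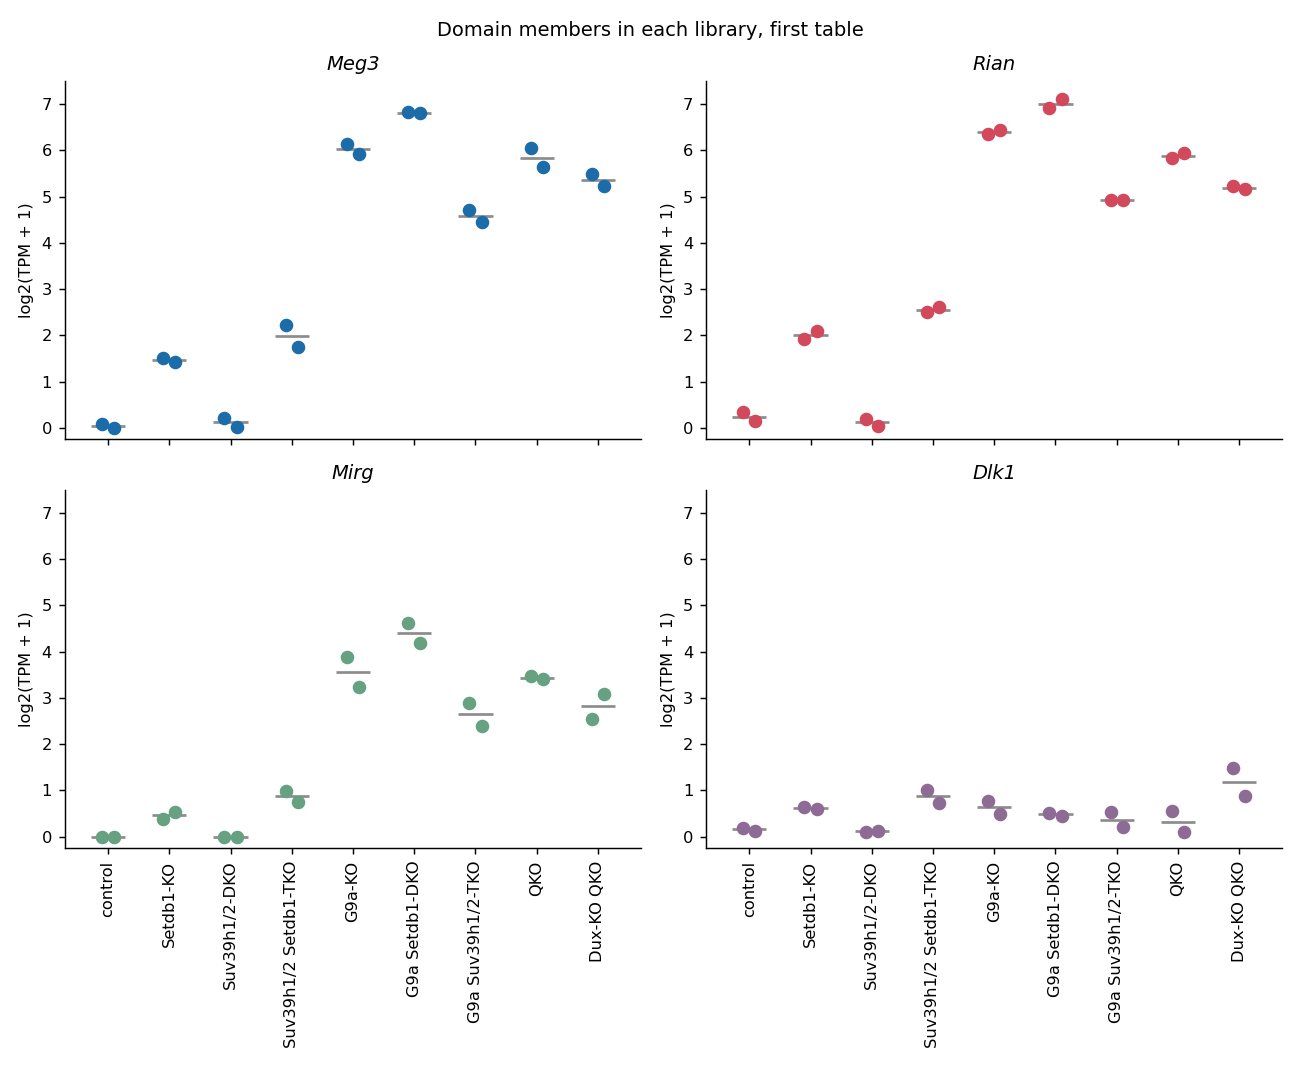
Level of Meg3, Rian, Mirg and Dlk1, on a log2(TPM + 1) axis, in the 18 libraries of the first table by genotype, with 1 point per library and a line at the group mean. Meg3, Rian and Mirg separate libraries without G9a from those that kept it (Meg3 from 21.0 to 112.1 TPM against at most 3.67 TPM), whereas Dlk1 stays at 1.80 TPM or less in all genotypes.

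The paternally expressed genes of the domain did not show this pattern in the first table. Dlk1, a transmembrane protein with EGF-like repeats related to Notch ligands, was 0.142 and 0.0887 TPM in control and 0.711 and 0.403 TPM in G9a-KO. It ranged from 0.0686 to 1.80 TPM without G9a and from 0.0657 to 1.01 TPM with G9a, and the ranges overlapped over most of their length. The highest value, 1.80 TPM, came from a Dux-KO QKO library, whose replicate had 0.826 TPM. Rtl1, a retrotransposon-derived gene needed in the placenta, was at 0 in 11 of 18 libraries and never exceeded 0.0545 TPM. Rtl1 lies antisense to the maternal transcript, and whether the counting used strand was not given in the sources used here.

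Tests were made with limma on log2(TPM + 1), a scale that understates the change of low genes. A gene was tested if at least 2 libraries reached 1 TPM, and it was called if its Benjamini-Hochberg adjusted p over all genes tested was under 0.05 and its log2 fold change was at least 1 in size. Of the 5 members, 4 passed the filter in the first table and Rtl1 did not. Standard errors were the same in each comparison of 2 groups, 0.18 for Meg3, 0.12 for Rian, 0.23 for Mirg and 0.20 for Dlk1, and every group had 2 libraries. All genotypes were compared with the same 2 control libraries, so those fold changes share their error. In these bulk samples, a larger share of cells that express a gene and more RNA per cell cannot be told apart.

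In G9a-KO against control, 3 of the 4 tested members were called higher, where 5.52% of the 13862 genes tested were called higher. Meg3 rose by 5.99 (adjusted p = 3.52e-12) and Rian by 6.16 (adjusted p = 5.08e-14) on the log2 scale, and by size of the log2 fold change they ranked 8 and 6 of all genes tested. Mirg was called with an adjusted p of 2.18e-08, and no fold is given because it was listed at 0 in control. Dlk1 differed by 0.47 (adjusted p = 0.080) and was not called. With a pseudocount of 0.1 the rises of Meg3 and Rian were 8.95 and 8.26, and they stayed called. Dlk1 was called as well with that pseudocount (1.58, adjusted p = 0.0342, limma). Ehmt2 itself was 83.6 to 91.1 TPM in control and 14.6 to 15.6 TPM in G9a-KO, and TPM does not divide the remaining RNA into intact and truncated transcript.

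The same 3 members were called in every other genotype of the first table without G9a. With Setdb1 also lost, Meg3 and Rian both rose by 6.77 (adjusted p = 4.69e-13 and 9.82e-15, limma), and 9.58% of genes were called higher. With Suv39h1/2 also lost, Meg3 rose by 4.54 and Rian by 4.69 (adjusted p = 1.74e-10 and 3.47e-12), against 4.65% of genes. In the QKO the rises were 5.79 and 5.65 (adjusted p = 1.48e-12 and 4.76e-14), against 10.1% of genes. Mirg had adjusted p = 8.4e-10, 7.82e-07 and 1.42e-08 in these comparisons.

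Setdb1 loss alone gave a smaller rise of the same RNAs. In Setdb1-KO against control, 2 of 4 members were called higher, where 4.12% of genes were, with Meg3 up by 1.42 (adjusted p = 2.91e-05) and Rian by 1.78 (adjusted p = 3.97e-08). Dlk1 differed by 0.46 (adjusted p = 0.0896), and Mirg had an adjusted p of 0.134. With a pseudocount of 0.1 in place of 1, all 4 members were called in this comparison, Meg3 at 3.83 and Rian at 3.53. Suv39h1/2 loss alone called 0 of 4 members, with 0 at an unadjusted p under 0.05 (limma), where 0.541% of genes were called in either direction. Loss of Suv39h1/2 and Setdb1 called Meg3 (1.94, adjusted p = 1.07e-06) and Rian (2.32, adjusted p = 2.14e-09), 2 of 4 against 4.74% of genes, and all 4 with the smaller pseudocount (Meg3 4.54, Rian 4.20).

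Each enzyme was then removed on backgrounds that already lacked others. G9a loss raised Meg3 by 5.36 on the Setdb1-KO background, by 4.46 on Suv39h1/2-DKO and by 3.86 on the background without Suv39h1/2 and Setdb1. Rian rose by 4.998, 4.81 and 3.33 in the same 3 steps, and Mirg was called in all 3. With a pseudocount of 0.1 the step on Suv39h1/2-DKO came to 7.04 for Meg3 and 7.35 for Rian. These are 3 of 4 members in each step, where 6.35%, 4.41% and 5.72% of genes were called higher. Dlk1 was not called in any of them, with differences of -0.14 on Setdb1-KO and -0.55 (adjusted p = 0.0484) without Suv39h1/2 and Setdb1.

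Setdb1 loss was compared on backgrounds with and without G9a. On Suv39h1/2-DKO, with G9a present, it raised Meg3 by 1.86 and Rian by 2.44, 2 of 4 members where 4.65% of genes were called higher (4.11 and 4.79 with a pseudocount of 0.1). On G9a-KO the differences were 0.79 for Meg3 (adjusted p = 0.00427), 0.62 for Rian (adjusted p = 0.00151) and 0.85 for Mirg (adjusted p = 0.0146, limma), all under the fold threshold. That is 0 of 4 called, with 3 at an unadjusted p under 0.05, where 5.43% of genes were called in either direction. On cells without G9a and Suv39h1/2, Meg3 rose by 1.25 (adjusted p = 5.60e-05) and was the only member called, against 6.45% of genes, while Rian differed by 0.96 and Mirg by 0.80.

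The difference between these steps was tested as an interaction over 4 groups. For Rian, the effect of losing both G9a and Setdb1 fell short of the sum of the single effects by 1.16 with Suv39h1/2 kept (SE 0.17, adjusted p = 0.000491) and by 1.48 with Suv39h1/2 lost (SE 0.17, adjusted p = 4.68e-05). Rian was the only member called, against 1.8% and 2.42% of genes called lower in these interactions. The interaction was -0.63 and -0.61 for Meg3 and 0.38 and -0.08 for Mirg, not called. With a pseudocount of 0.1 both shortfalls of Rian were larger (-2.91 and -3.80), and Meg3 was called as well in both (-3.03 and -2.83). An interaction on the log scale compares folds: the Rian group mean went from 0.183 TPM in control to 3.05 TPM in Setdb1-KO, and from 83.4 TPM in G9a-KO to 128.5 TPM with Setdb1 also lost.

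In the first table, Suv39h1/2 loss lowered Meg3 and Rian on G9a-KO, and Rian alone passed the fold threshold on G9a;Setdb1-DKO. Against G9a-KO, the cells without G9a and Suv39h1/2 had Meg3 lower by a log2 change of -1.45 (adjusted p = 0.000107) and Rian by -1.47 (adjusted p = 2.24e-06, limma), 2 of 4 members where 1.1% of genes were called lower. Mirg differed by -0.92 (adjusted p = 0.0181). Against G9a;Setdb1-DKO, the QKO had Rian lower by -1.13 (adjusted p = 1.53e-05), with 1.79% of genes called lower, and Meg3 (-0.98) and Mirg (-0.97) just inside the fold threshold. On Setdb1-KO, where G9a is present, Suv39h1/2 loss called 0 of 4 members, with 2 at an unadjusted p under 0.05 (limma), against 0.0938% of genes called in either direction, and Meg3 differed by 0.52 and Rian by 0.54. The step on G9a-KO in the second table without doxycycline had the opposite sign and was not called, with Meg3 at 1.51 (SE 0.77, adjusted p = 0.354) and Rian at 1.94 (SE 1.04, adjusted p = 0.387, limma).

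The interaction of G9a and Suv39h1/2 in the first table was below 0 for Meg3 and Rian whether Setdb1 was kept or lost. It was -1.52 for Meg3 (SE 0.25, adjusted p = 0.0025) and -1.35 for Rian (SE 0.17, adjusted p = 0.00031) with Setdb1 kept, where 1.1% of genes were called lower. With a pseudocount of 0.1 this value for Rian was -0.91 (adjusted p = 0.190, limma) and no longer called. With Setdb1 lost it was -1.50 for Meg3 (adjusted p = 0.0017), -1.67 for Rian (adjusted p = 2.81e-05) and -1.38 for Mirg (SE 0.33, adjusted p = 0.0167), where 2% of genes were. Of the 52 interactions tested over the members in both tables, those with doxycycline included, these and the 2 of Rian with Setdb1 were the 7 called. That of Mirg lost its call (adjusted p = 0.057 to 0.0773) without Setdb1-KO replicate 1, without Suv39h1/2;Setdb1-TKO replicate 1, without G9a;Setdb1-DKO replicate 1 or without QKO replicate 2. The same interaction in the second table without doxycycline had the opposite sign, at 2.59 for Meg3 (SE 1.10, adjusted p = 0.350) and 3.42 for Rian (SE 1.47, adjusted p = 0.359) with Setdb1 kept. With Setdb1 lost it was 1.38 for Meg3 (adjusted p = 0.977) and 3.25 for Rian (adjusted p = 0.578, limma). None of the 12 genotype interactions of members in that table was called, and 3 had an unadjusted p under 0.05 (limma).

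**Figure D2:**
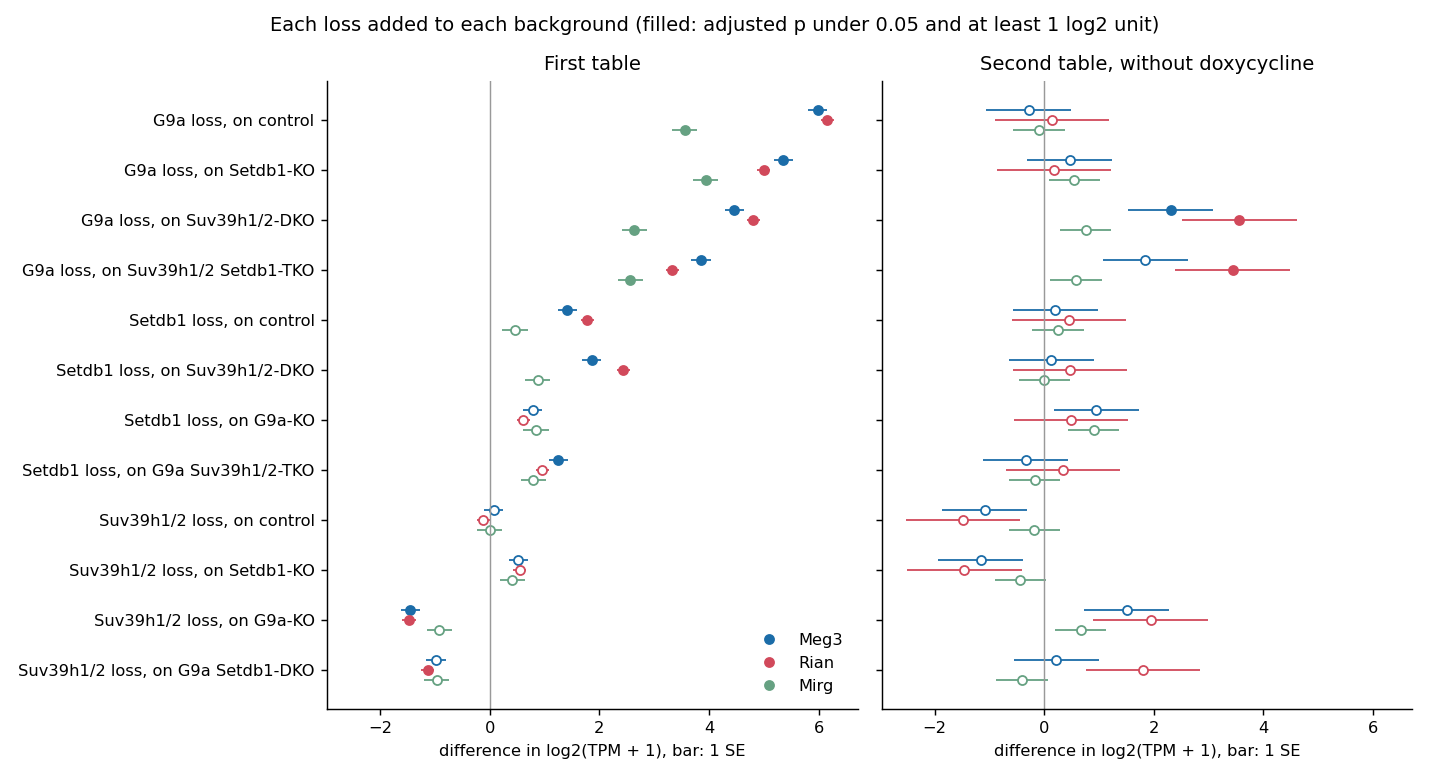
Difference in log2(TPM + 1) for Meg3, Rian and Mirg when each enzyme is lost on each background, in the first table (left) and in the second without doxycycline (right), with bars of 1 SE and filled points where the gene was called. In the first table G9a loss gives the largest differences (Meg3 3.86 to 5.99) and Suv39h1/2 loss on G9a-KO lies below 0 (Meg3 -1.45), and in the second 3 points are filled, all for G9a loss on backgrounds without Suv39h1/2. Points of Mirg against a group listed at 0 are differences on this scale and not folds.

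Dux-KO QKO against QKO, which also differed in line name, called none of the 4 members (0 of 4, where 6.54% of genes were called in either direction). All 4 nevertheless had an unadjusted p under 0.05 by limma. Meg3 differed by -0.48 (adjusted p = 0.0407), Rian by -0.69 (adjusted p = 0.000435), Mirg by -0.62 (adjusted p = 0.0425) and Dlk1 by 0.85 (adjusted p = 0.0036). Against control, the Dux-KO QKO still had Meg3 higher by 5.32 and Rian by 4.96, with Mirg and Dlk1 also called, 4 of 4 members where 16.8% of genes were called higher. Dlk1 (1.02, adjusted p = 0.000506) was called in this comparison alone, and with median ratio scaling it was 0.95 and no longer called. It also lost its call without control replicate 2 (0.99) and without Dux-KO QKO replicate 1 (0.71).

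The genes around the cluster were measured to place the change on the chromosome. Of 13 tested flanking genes on both sides, 0 were called in G9a-KO against control, with 5 at an unadjusted p under 0.05 (limma). Over all 13862 genes tested, 765 were called higher and 519 lower, and 0 of 13 differs little from that share. The log2 fold changes of the flanking genes ran from -0.73 to 0.40 with a median of -0.16 beside -0.00534 over all genes. The heat shock protein gene Hsp90aa1 had 2165 to 2489 TPM in control and 2533 to 2974 TPM in G9a-KO (0.24, adjusted p = 0.324), and the transcription factor gene Yy1 differed by 0.40 (adjusted p = 0.049). In all 16 comparisons for which this list was followed, 0 of 13 were called, with 62 of 208 tests at an unadjusted p under 0.05 (limma). The share of all genes called was lowest for doxycycline in control, at 0.181% in either direction. It was highest in Dux-KO QKO against control, with 16.8% of genes higher and 597 genes lower.

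Begain and Dio3, the genes that bound the imprinted domain, behaved unlike the maternal RNAs. Begain was 1.16 to 1.41 TPM in control and 0.248 to 0.351 TPM in G9a-KO (-0.81, adjusted p = 0.00241, under the fold threshold). Dio3, a thyroid hormone deiodinase whose start lies 738.1 kb after that of Meg3, differed by 0.15 in G9a-KO and was not called. It was called in G9a;Setdb1-DKO (1.15, adjusted p = 9.34e-06), with 1.09 to 1.54 TPM against 0.0360 to 0.0447 TPM in control, and in the Dux-KO QKO (1.61, adjusted p = 1.67e-07), with 1.87 to 2.50 TPM. Begain was called in the Dux-KO QKO as well (1.70), at 5.88 to 6.99 TPM.

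**Figure D3:**
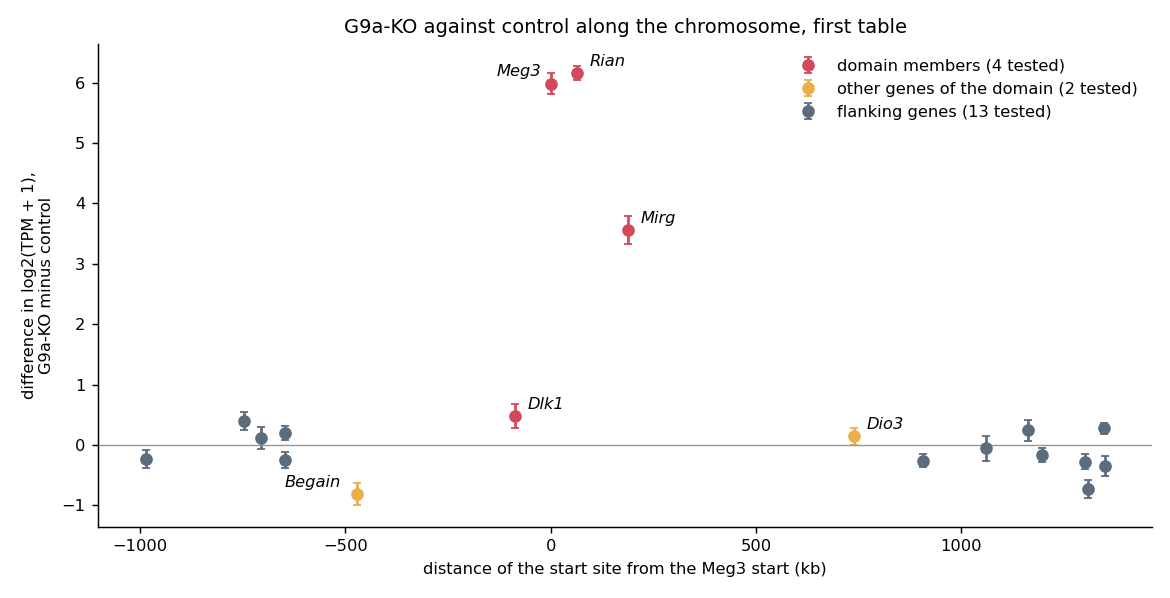
Difference in log2(TPM + 1) between G9a-KO and control (bars: 1 SE) for the tested genes of the region, placed by the distance in kb of their start from the Meg3 start. Meg3, Rian and Mirg stand above 3, and the 13 flanking genes lie between -0.73 and 0.40. Mirg is listed at 0 in control, so its height is a difference on this scale and not a fold.

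Factors known to act on imprinted domains were followed from a list of 14. In G9a-KO, 3 of 14 were called higher and 0 lower (median 0.12), where 5.52% of the 13862 genes tested were called higher and 519 genes lower. Dppa3, which protects maternal imprints in the zygote, was 4.001 to 5.411 TPM in control and 31.9 to 32.1 TPM in G9a-KO (2.54, adjusted p = 3.88e-08). Aff3, reported to bind the imprinting control region of this domain, rose by 1.22, and Dnmt3l, a cofactor of the de novo DNA methyltransferases, by 1.05. Zfp57 (-0.30) and its partner Trim28 (-0.08), which hold imprints through H3K9 methylation, were not called. Of 9 genes for the Polycomb complex PRC2 and related chromatin factors, 0 were called, with 1 at an unadjusted p under 0.05 (limma), and their median was -0.11. In the Notch pathway, to which Dlk1 is related, 1 of 11 tested genes was called higher (Dll1, 1.45) and 1 lower (Jag2, -1.19). In lists this short, 0 of 9 and 1 of 11 lie near the shares over all genes.

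Imprinted genes of other chromosomes also moved. In G9a-KO, 6 of 17 tested paternally expressed genes were called higher and 0 lower (median 0.65), and 2 of 7 tested maternally expressed genes were called higher and 1 lower (median 0.34). Over all 13862 genes tested, 5.52% were called higher and 519 genes lower. H19, a maternal long non-coding RNA, was 2.696 to 2.919 TPM in control and 95.3 to 101.8 TPM in G9a-KO (4.71, adjusted p = 5.38e-13). Peg3, a paternally expressed zinc finger gene, was 4.50 to 4.84 and 97.8 to 126.4 TPM (4.31, adjusted p = 4.61e-10), and Phlda2 fell by 2.08 (adjusted p = 1.29e-06). These lists, like the members, were chosen with earlier results known, and whether Meg3, Rian and Mirg moved more than other imprinted genes was not tested. The summed level of the 18 paternally expressed genes was 314.3 to 431.4 TPM with G9a and 562.3 to 972.2 TPM without it in the first table, and 209.1 to 460.3 against 559.9 to 1008 TPM in the second, with no overlap in either. The summed level of the maternally expressed genes was 252.6 to 371.4 TPM with G9a and 290.1 to 767.7 TPM without it in the first table, and 252.1 to 436.1 against 422.7 to 653.3 TPM in the second, with overlap in both.

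Markers of other cell types moved in the same comparison. All 18 tested primitive endoderm markers of 20 were called higher in G9a-KO (median 2.298), and Srgn (3.01) and Pdgfra (2.95) led them. Over all 13862 genes tested, 5.52% were called higher and 519 genes lower. The sum over the 20 markers was 618.7 and 632.2 TPM in control and 2813 and 2395 TPM in G9a-KO, with Ttr at 0 in both controls. The sum was 1112 and 849.4 TPM in the QKO, beside 48.8 to 65.0 TPM of Meg3. It was 1111 and 985.6 TPM after loss of Suv39h1/2 and Setdb1, beside 2.36 to 3.67 TPM of Meg3. The other groups without G9a had 1400 and 1730 TPM (G9a;Setdb1-DKO), 2704 and 2051 TPM (G9a;Suv39h1/2-TKO) and 2491 and 2389 TPM (Dux-KO QKO). Setdb1-KO had 593.2 and 756.7 TPM and Suv39h1/2-DKO 987.2 and 915.8 TPM. The part of these markers in the result was not tested. Of 10 2-cell genes 9 were called higher in G9a-KO (median 2.41). Their sum was 74.6 and 80.8 TPM in control and 463.4 and 474.3 TPM in G9a-KO. It was 83.1 TPM in both Dux-KO QKO libraries, which had 36.6 to 44.0 TPM of Meg3. Among the other groups without G9a it was 2637 and 2726 TPM (G9a;Setdb1-DKO), 265.8 and 271.0 TPM (G9a;Suv39h1/2-TKO) and 5988 and 5811 TPM (QKO). Setdb1-KO had a sum of 1362 and 1509 TPM, beside 1.68 to 1.84 TPM of Meg3. Suv39h1/2-DKO had 5.71 and 9.56 TPM and Suv39h1/2;Setdb1-TKO 997.7 and 958.2 TPM. The part of the 2-cell genes was not tested. Of 5 tested fibroblast and mesenchyme markers of 12, cells in which Meg3 is abundant, 0 were called in G9a-KO, with 3 at an unadjusted p under 0.05 (limma). The sum over the list was 142.8 to 171.2 TPM in control and 154.6 to 154.7 TPM in G9a-KO, and Postn was at 0 in both G9a-KO libraries. It was 192.7 and 253.5 TPM in G9a;Setdb1-DKO, 183.6 and 128.3 TPM in G9a;Suv39h1/2-TKO, 334.4 and 255.1 TPM in the QKO and 434.3 and 389.4 TPM in the Dux-KO QKO. Over the 16 comparisons followed, 10 of 86 tests of these markers were called. The share of all genes called ran from 0.181% in either direction (doxycycline in control) to 16.8% higher and 597 genes lower (Dux-KO QKO against control). Their part in the result was not tested. Trophoblast markers had 1 of 11 called in G9a-KO (Plac1, 1.32), near the share over all genes. They had a sum of 40.2 to 40.5 TPM in control and 53.9 to 55.2 TPM in G9a-KO, and Prl3d1 and Tpbpa were at 0 in all 4 libraries.

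In the second table, where all cells lack endogenous Dux, Meg3 and Rian were lower in the libraries without G9a than in the first (0.223 to 9.16 and 1.76 to 21.1 TPM), and the replicates of some groups lay apart. Without doxycycline, Meg3 was 0.365 and 2.44 TPM in control, 0.777 and 0.795 TPM in G9a-KO, 3.80 and 4.37 TPM without G9a and Suv39h1/2, and 2.75 and 3.30 TPM in the QKO. It was 0.535 and 6.73 TPM without G9a and Setdb1, 2.24 and 0.915 TPM in Setdb1-KO, 0.0375 and 0.0116 TPM in Suv39h1/2-DKO, and 0.0933 and 0.142 TPM without Suv39h1/2 and Setdb1. The 2 control libraries thus differed more than several genotypes did. The highest Meg3 value of the second table, 9.16 TPM, lay below the lowest value without G9a in the first, 21.0 TPM, and the tables may have been normalized separately, so this is a side-by-side reading and no test. Ehmt2 was 109.6 to 128.7 TPM in these controls and 2.40 to 3.25 TPM in this G9a-KO, so Ehmt2 was low where the label gives G9a loss.

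Rian showed the same split of the controls, at 0.542 and 8.68 TPM. It was 2.13 and 4.78 TPM in G9a-KO, 2.10 and 10.5 TPM without G9a and Setdb1, 15.7 and 14.9 TPM without G9a and Suv39h1/2, and 18.5 and 21.1 TPM in the QKO. Setdb1-KO had 12.4 and 1.06 TPM, Suv39h1/2-DKO 0.381 and 0.387 TPM, and the loss of Suv39h1/2 and Setdb1 0.920 and 0.916 TPM. The lines without Suv39h1/2 gave close replicates, and there the libraries with and without G9a did not overlap.

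Mirg was between 0 and 1.39 TPM in all 16 of these libraries, and at 0 in both libraries of Suv39h1/2-DKO and of the loss of Suv39h1/2 and Setdb1. Dlk1 stayed between 0.122 and 0.931 TPM over the 32 libraries of the second table, and Rtl1 was at 0 in 26 of 32 and at most 0.0419 TPM. Neither passed the filter, so 3 of 5 members were tested there.

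**Figure D4:**
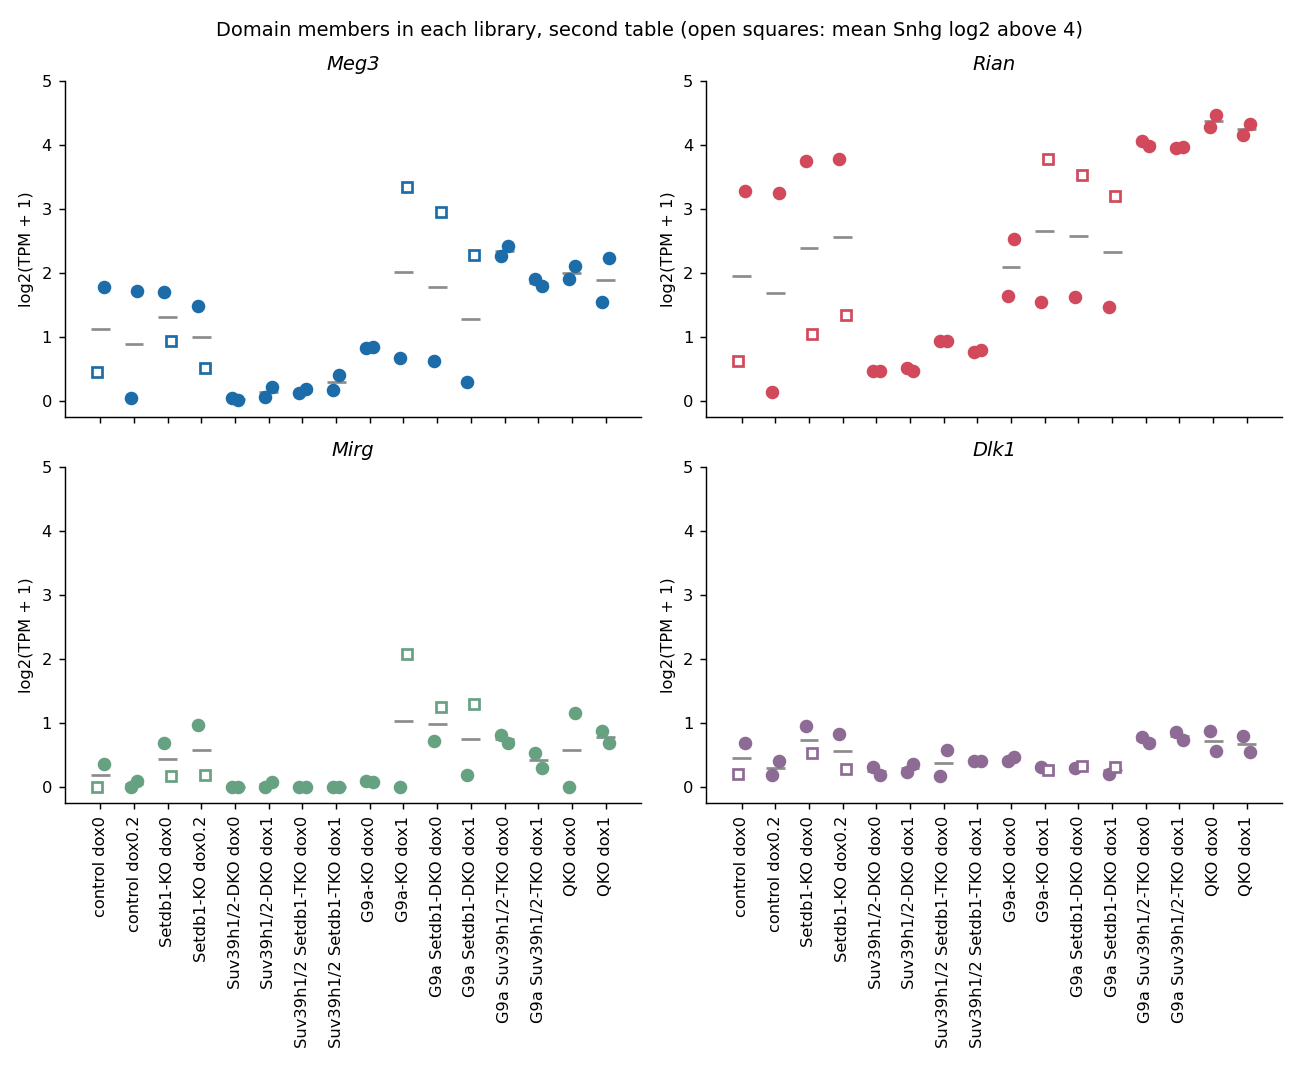
Level of Meg3, Rian, Mirg and Dlk1, on a log2(TPM + 1) axis, in the 32 libraries of the second table by genotype and labelled doxycycline level, with a line at the group mean and open squares for the 6 libraries whose Snhg mean was above 4. Meg3 and Rian replicates lie apart in control and Setdb1-KO (Meg3 0.365 and 2.44 TPM in control) and close together in the 4 genotypes without Suv39h1/2.

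Against the control without doxycycline, 0 of 21 tests (3 members in 7 genotypes) were called, with 1 at an unadjusted p under 0.05 (limma). The share of genes called in either direction was 2.52% in Setdb1-KO, 1.56% in Suv39h1/2-DKO, 3.49% without Suv39h1/2 and Setdb1, 7.98% in G9a-KO, 13.2% without G9a and Setdb1, 6.61% without G9a and Suv39h1/2 and 14% in the QKO. In G9a-KO, Meg3 differed by -0.28 (SE 0.77, adjusted p = 0.828) and Rian by 0.14 (SE 1.04, adjusted p = 0.94). In the QKO, Rian differed by 2.43 (SE 1.04, adjusted p = 0.079), and it was called without control replicate 2 (3.75, adjusted p = 0.0245). At these standard errors, against 0.18 and 0.12 in the first table, a rise of the size found there for Setdb1 loss was not detectable. The rises found there for G9a-KO, 5.99 for Meg3 and 6.16 for Rian, were several of these standard errors in size and were not seen here. The difference between the tables was not tested.

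On backgrounds without Suv39h1/2 the step of losing G9a was called. Added to Suv39h1/2-DKO, it raised Meg3 by 2.31 (SE 0.77, adjusted p = 0.0493) and Rian by 3.56 (SE 1.04, adjusted p = 0.024), 2 of 3 members where 3.97% of genes were called higher. Added to the loss of Suv39h1/2 and Setdb1, it raised Rian by 3.44 (adjusted p = 0.0233), 1 of 3 where 5.62% were, and Meg3 differed by 1.85 (adjusted p = 0.105). On Setdb1-KO it called 0 of 3, with Meg3 at 0.47 and Rian at 0.18 and 7.9% of genes called in either direction. Leaving out any 1 of the 4 libraries compared, which leaves a lone library assumed to vary like the other groups, ended each of these calls. The values were then 2.23 to 2.39 for Meg3 (SE 0.97 to 0.98), and 3.52 to 3.60 and 3.35 to 3.53 for Rian (SE 1.31).

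Doxycycline, which induces the Dux transgene, was followed by no call of a member. Over 8 genotypes, 0 of 24 responses were called and 0 had an unadjusted p under 0.05 (limma), where 0.166% (Setdb1-KO) to 1.05% (G9a and Setdb1 lost) of genes were called in either direction. In the other 6 genotypes that share was 0.181% in control, 0.449% in Suv39h1/2-DKO, 0.246% without Suv39h1/2 and Setdb1, 0.955% in G9a-KO, 0.456% without G9a and Suv39h1/2 and 0.413% in the QKO. At shares this low, 0 of 24 differs little from the rate over all genes. The responses ran from -0.50 to 1.17 for Meg3 (SE 0.77) and from -0.26 to 0.57 for Rian (SE 1.04). Those of Mirg ran from -0.34 to 0.95 (SE 0.47), and its response in G9a-KO was 1.99 without replicate 1 of G9a-KO with doxycycline. With doxycycline, Meg3 was 0.0330 and 2.29 TPM in control, 1.81 and 0.436 TPM in Setdb1-KO, 0.595 and 9.16 TPM in G9a-KO, and 0.223 and 3.87 TPM without G9a and Setdb1. It was 0.0458 and 0.169 TPM in Suv39h1/2-DKO, 0.125 and 0.329 TPM without Suv39h1/2 and Setdb1, 2.75 and 2.46 TPM without G9a and Suv39h1/2, and 1.94 and 3.71 TPM in the QKO.

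Under doxycycline, Rian kept the contrast on the backgrounds without Suv39h1/2. It was 0.428 and 0.387 TPM in Suv39h1/2-DKO and 14.4 and 14.6 TPM once G9a was lost (3.46, adjusted p = 0.0286, 3.67% of genes called higher). It was 0.699 and 0.732 TPM without Suv39h1/2 and Setdb1 and 16.9 and 19.1 TPM in the QKO (3.47, adjusted p = 0.0165, 4.55%). Leaving out any 1 of the 4 libraries compared ended both calls, with values of 3.44 to 3.48 and 3.39 to 3.55 and an SE of 1.31 in place of 1.04. Meg3 differed by 1.70 and 1.60 in these steps and was not called. The highest Mirg level of the second table, 3.21 TPM, came from G9a-KO replicate 2 with doxycycline.

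The 6 libraries with a mean log2(TPM + 1) over the Snhg genes, hosts of small nucleolar RNAs, above 4 (4.16 to 4.61) stood apart from the other 26 of the second table (2.40 to 3.26). All 18 libraries of the first table were at 4.30 to 4.87. The 6 were control replicate 1, Setdb1-KO replicate 2 in both states, G9a-KO replicate 2 with doxycycline and replicate 2 without G9a and Setdb1 in both states, and the other library of each of these groups was of low Snhg level. Within control and Setdb1-KO the library of high Snhg level had the lower Meg3 (0.365 against 2.44 TPM in control), and within the G9a lines it had the higher Meg3 (9.16 against 0.595 TPM in G9a-KO with doxycycline). Meg3 also lay apart in the control with doxycycline (0.0330 and 2.29 TPM), where both libraries were of low Snhg level. The part of this class in the results was not tested beyond 2 alternatives. With it as a term of the model, no call of a member changed. Without the 6 libraries, which left 1 library in each of their groups, no call of a member was lost and some were gained.

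The ratio of Rian to Meg3 was 0.827 to 20.2 (median 1.25) in the 18 libraries of the first table. In the 10 of them without G9a it was 0.827 to 1.44 (median 1.16). In the second table it was 2.23 to 33.5 (median 5.58) in the 26 libraries of low Snhg level and 1.16 to 3.56 (median 1.52) in the 6 of high level. The highest ratios came from libraries with Meg3 near 0. Meg3 was 0.00518 TPM at 20.2 (control) and 0.0116 TPM at 33.5 (Suv39h1/2-DKO without doxycycline). TPM scales by length, so the ratio compares molecules as RSEM assigned them to the 2 genes, and its change between tables was not tested.

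**Figure D5:**
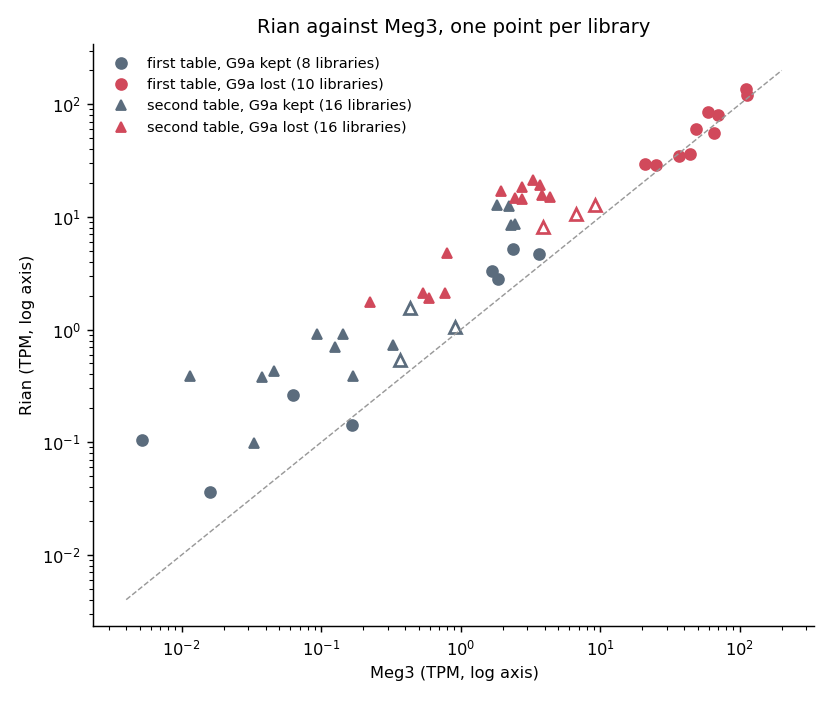
Rian against Meg3 in TPM in each library, on log axes, with circles for the first table, triangles for the second, red for libraries without G9a, open triangles for the 6 libraries of high Snhg level and a dashed line of equality. Libraries of the first table without G9a lie along the line, and most of the second table lie above it (median ratio 5.58 in 26 libraries).

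Across the 18 libraries of the first table, log2(TPM + 1) of Meg3 correlated with that of Rian at r = 0.994, of Mirg at 0.986 and of Dlk1 at 0.345. Across the 32 of the second table r was 0.899 with Rian, 0.814 with Mirg and 0.488 with Dlk1. These describe libraries that share genotypes and depth and carry no p.

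Among 13415 genes tested in both tables, the likeness to Meg3 was ranked by the smaller of the 2 correlations of group means, over 9 and 16 groups. Rian came first (0.996 and 0.927), ahead of every gene outside the domain, and Mirg ranked 33 (0.992 and 0.843). The 6 nearest genes outside the members were Impact, a paternally expressed imprinted gene (0.940 and 0.903), Dppa3 (0.906 and 0.894), Nr6a1 (0.904 and 0.892), Aim2 (0.932 and 0.883), Platr14 (0.876 and 0.906) and Slfn3 (0.985 and 0.874). Impact was 47.3 to 54.1 TPM in control and 134.8 to 164.6 TPM in G9a-KO of the first table. Dppa3 was called in G9a-KO of the second table as well (2.02, SE 0.40, adjusted p = 0.00118), where Meg3 was not.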

How the data were processed

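Per the labels' protocols, poly(A) RNA libraries were made with a stranded kit from 50 mESC samples and read as 150 nt pairs. The submitters' processing notes name STAR 2.7.10b, Bowtie2 2.3.4.1, RSEM 1.3.1, SAMtools 1.9 and mm10. The deposited values are TPM computed by the authors per gene and library. Read depth is unknown, since TPM keeps no depth, and no counting interval is given. Exact zeros can be failed estimates. In the second table, 2 transgene or reporter rows were left out.

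From these, log2(TPM + 1) was fitted by group with limma 3.58.1 (R 4.3.3; trended moderation of the spread), 1 fit per table, for genes with at least 1 TPM in at least 2 libraries (13862 and 13817 genes). Residual degrees of freedom were 9 and 16. Benjamini-Hochberg adjustment ran over all genes tested in a comparison. Of 66 comparisons, those against control share 2 control libraries. Samples were grouped by their titles.

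The members, lists, rules and tests were chosen with earlier results of these data known. The rule named all members, up to 4 genes per list (those called in G9a-KO by size, then by level) and the 6 genes most like Meg3. Alternatives were a pseudocount of 0.1, no filter, median ratio scaling, a replicate block, only the groups compared, the second table without libraries of high Snhg level, and leaving out each library. Alternatives chosen after seeing the data were the Snhg class as a term, a fit without the Dux-KO QKO and a crossed block. Tested on simulated data, the G9a-KO comparison of 13862 genes recovered 96% of 50 genes changed by 1.5 and 100% of those changed by 2 or more on the log2 scale, with 0 of 13662 unchanged genes called. The second-table G9a-KO comparison of 13817 genes recovered 86% at 1.5, 94% at 2, 98% at 3 and 100% at 4, with 5 of 13617 called. In both, the changed genes were drawn from those with a mean log2(TPM + 1) above 3 in the table. Group means in the second table reached 2.34 for Meg3 and 1.04 for Mirg, so these rates do not cover genes as low as these.

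Sequences and coordinates came from RefSeq (GRCm38.p6) and GENCODE M21. Promoters were matched for 4 of 5 members.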

Additional observations from a re-analysis of the deposited data

Results flagged for a closer look

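The effect of 1 loss differed with the state of another in 7 of 52 interactions tested over the members by limma, all in the first table. For G9a by Setdb1 these were Rian with Suv39h1/2 kept (-1.16) and with Suv39h1/2 lost (-1.48). For G9a by Suv39h1/2 with Setdb1 kept they were Meg3 (-1.52) and Rian (-1.35). With Setdb1 lost they were Meg3 (-1.50), Mirg (-1.38) and Rian (-1.67). Each value is the log2 effect of both losses together minus the sum of the single effects, and each is below 0. In the second table without doxycycline the G9a by Suv39h1/2 interactions were above 0 and not called (Meg3 2.59 and 1.38, Rian 3.42 and 3.25 with Setdb1 kept and lost). Without the 6 libraries of high Snhg level they were 3.26 and 2.92 for Meg3 and 4.75 and 5.56 for Rian. That fit left 1 library each of control, Setdb1-KO and G9a;Setdb1-DKO without doxycycline, with a spread taken from other groups. The control library left had 2.44 TPM of Meg3 and 8.68 TPM of Rian, against 0.365 and 0.542 TPM in the control library taken out. The difference between the tables was not tested.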

How the results depend on the processing

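No called fold change of a member changed direction under any alternative run. A pseudocount of 0.1 kept 203 of 220 member results, made 16 calls and ended 1. Dlk1 in G9a-KO against control was among the calls made (1.58). The number of members called higher went from 2 to 4 in Setdb1-KO, in Suv39h1/2;Setdb1-TKO and for Setdb1 loss added to Suv39h1/2-DKO, from 0 to 1 in Dux-KO QKO against QKO and from 1 to 2 for G9a loss added to Suv39h1/2;Setdb1-TKO without doxycycline in the second table. The number called lower went from 0 to 1 for G9a loss added to Suv39h1/2;Setdb1-TKO, from 1 to 2 for Suv39h1/2 loss added to G9a;Setdb1-DKO and from 1 to 2 and 1 to 4 for the interaction of G9a and Setdb1 with Suv39h1/2 kept and lost, and from 2 to 1 for that of G9a and Suv39h1/2 with Setdb1 kept.

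Without a filter, G9a loss added to Suv39h1/2-DKO called 1 member, not 2, in the second table (Rian). Median ratio scaling moved the median of all genes by -0.18 to 0.14 in the first table and -0.15 to 0.20 in the second, and raised the members called for Setdb1 loss added to G9a;Suv39h1/2-TKO from 1 to 2. Fitting only the groups compared gave 2 in place of 1 for G9a loss added to Suv39h1/2;Setdb1-TKO in both doxycycline states and to Suv39h1/2-DKO with doxycycline. Without the 6 libraries of high Snhg level, those 3 counts were 2 as well, and 1 member of the second table was lower in Suv39h1/2-DKO and in Suv39h1/2;Setdb1-TKO against control and for Suv39h1/2 loss added to Setdb1-KO, where 0 had been. There 1 member was higher, not 0, for Suv39h1/2 loss added to G9a-KO and to G9a;Setdb1-DKO (2 with doxycycline for the latter), and 2, not 0, in both interactions of G9a and Suv39h1/2. That fit left 1 library in each group the 6 came from, with a spread taken from the other groups. The cause was not tested.

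Leaving out 1 library kept 1048 of 1088 member results. In the second table, the members called for G9a loss added to Suv39h1/2-DKO and to Suv39h1/2;Setdb1-TKO fell to 0 in all 4 fits each, in both doxycycline states. The count ranged from 0 to 1 in Dux-KO QKO against QKO, for Setdb1 loss added to G9a-KO, in the second-table QKO against control (1 without control replicate 2), and, without replicate 1 of G9a-KO with doxycycline, for doxycycline in G9a-KO and Suv39h1/2 loss added to G9a-KO. It ranged from 1 to 2 for Setdb1 loss added to G9a;Suv39h1/2-TKO, for Suv39h1/2 loss added to G9a;Setdb1-DKO and for the interaction of G9a and Setdb1 with Suv39h1/2 lost.

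With the replicate block, 220 of 220 member results were the same, for example 3 members called in G9a-KO. The replicate differences of groups correlated from -0.06 to 0.62 in the first table and -0.65 to 0.75 in the second, over 0.1 in 25 of 36 and 66 of 120 pairs of groups, so the numbers were not taken to pair libraries across genotypes. In the 8 pairs of 1 genotype without and with doxycycline it was 0.18 to 0.75, and the block changed no call there either. A crossed block for Setdb1-KO against control without doxycycline called 0 members. TPM gives no depth, which limits what can be said of levels under 1 TPM.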
